A study of Mus musculus with 6 samples.

Results

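The urea cycle turns ammonia, which is toxic, into urea, and in mammals the whole cycle runs in hepatocytes. Carbamoyl phosphate synthetase and ornithine transcarbamylase work in the mitochondrion, and the steps that follow, argininosuccinate synthetase and argininosuccinate lyase among them, take place in the cytosol. In the liver lobule the cycle is known from hepatocytes on the portal side, whereas glutamine synthetase is known from the last rows of hepatocytes around the central vein, where it takes up ammonia that escaped the cycle.

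Of 10 genes of the urea cycle and glutamine metabolism, the members, those described here by name are the enzymes Cps1, Otc, Ass1 and Asl, Nags, which makes the activator of carbamoyl phosphate synthetase, the mitochondrial aspartate-glutamate carrier Slc25a13, the ornithine carrier Slc25a15, glutamine synthetase (Glul) and liver glutaminase (Gls2). The members were chosen by name, and all 10 were present among the 16623 genes of the table. The livers of 3 WT and 3 SIRT7 KO mice, 5 to 6 months old, were dissociated, hepatocytes and nonparenchymal cells were mixed, and each mouse gave 1 droplet library of the 3′ ends of RNA. SIRT7 is a histone deacetylase, and the extent of its deletion was not given in the sources used here. The table held 11610 cells, with 3109516, 2511947 and 2731232 unique molecular identifiers (UMIs, each standing for 1 counted RNA molecule) in WT mice 1, 2 and 3 and 11069411, 6065832 and 2572107 in SIRT7 KO mice 1, 2 and 3. Levels are given as CP10K, the UMIs of a gene per 10000 UMIs of a cell, averaged over the cells of a mouse. Because molecules were counted at their 3′ ends, each counts once whatever its length, so levels of different genes can be set side by side.

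Sirt7 itself was lower in every library labelled SIRT7 KO. Over all cells its level was 0.718, 0.512 and 0.546 CP10K in WT mice 1, 2 and 3, and 0.1, 0.0814 and 0.139 CP10K in SIRT7 KO mice 1, 2 and 3. The groups did not overlap. Remaining Sirt7 UMIs may stem from a 3′ end outside the deleted stretch, which was not tested.

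The table names no cell types, so cells were clustered and named from marker genes. A pair of clusters was hepatocyte-like. In the first, 1765 cells were led by A2ml1, Fabp1 and Sult2a5, and it is called Fabp1-led here. In the second, 1196 cells were led by Mlxipl, Gcgr and Slc22a30, and it is called Mlxipl-led. All 10 hepatocyte markers (Alb, Apoa1, Apoa2, Apoc3, Ttr, Ahsg, Fgb, Fgg, Rbp4 and Trf) were detected in both clusters. The 10 genes with the highest fold in each cluster included 0 of these markers. By the median over the 6 mice, 7 of 10 periportal and 8 of 12 pericentral landmark genes were higher in the Mlxipl-led cluster. In 6 of 6 mice, 4 periportal landmarks were higher and 2 lower there, and 4 pericentral landmarks were higher and 3 lower. The clusters also differed in Malat1, a nuclear RNA, which reached 0.398 to 23.4 CP10K in the Fabp1-led and 306 to 516 CP10K in the Mlxipl-led cluster over the 6 mice. Zone names were not given to the clusters, and zones were measured from landmark genes instead.

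The libraries differed in ways that bear on every value below. WT mice 1, 2 and 3 held 800, 512 and 102 hepatocyte-like cells, and SIRT7 KO mice 1, 2 and 3 held 929, 283 and 335. The median UMIs of these cells were 1724, 1470 and 1234 in WT and 1206, 1219 and 3291 in SIRT7 KO. SIRT7 KO mouse 3 thus had the deepest cells, and 271 of its 335 were Mlxipl-led. The hepatocyte markers summed to 651, 704 and 367 CP10K in the hepatocyte-like cells of WT mice 1, 2 and 3 and to 362, 252 and 346 CP10K in those of SIRT7 KO mice 1, 2 and 3. All 10 markers had a lower fitted level in SIRT7 KO, with a median log2 difference of -0.82, and 0 of 10 passed the test described below. Apoa2 was the most abundant of them in 5 of 6 mice and Alb in SIRT7 KO mouse 3, and 0 of them were at 0 in any mouse. The red cell gene Hbb-bs stood at 40.8 CP10K in the hepatocyte-like cells of WT mouse 1, whereas SIRT7 KO mouse 1 had 2.28 CP10K and WT mouse 2, next in order, 0.115 CP10K. The 10 macrophage markers summed to 0.664, 0.677 and 2.50 CP10K in the hepatocyte-like cells of WT mice 1, 2 and 3 and to 5.35, 1.28 and 1.05 CP10K in those of SIRT7 KO mice 1, 2 and 3. The part that cell quality, library composition or free RNA had in the differences below was not tested.

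The members differed widely in abundance in hepatocyte-like cells. Ass1 was the most abundant by group mean, at 34.6 CP10K in WT and 20.8 CP10K in SIRT7 KO. Cps1 (17.3 and 9.76), Otc (9.50 and 5.52) and Asl (7.46 and 5.02) followed, with WT given first. The carriers, glutaminase and glutamine synthetase lay between 2.35 and 5.06 CP10K in each genotype. Nags was lowest, at 0.680 CP10K in WT and 0.524 CP10K in SIRT7 KO. In WT, Ass1 lay above Cps1 and Cps1 above Otc without overlap between mice, while Otc and Asl overlapped. In SIRT7 KO, the ranges of Ass1 and Cps1, of Cps1 and Otc, and of Otc and Asl overlapped.

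The first comparison asked whether the members differed between WT and SIRT7 KO hepatocyte-like cells. The log2 of each mouse mean plus 0.05 CP10K was compared with limma over 9864 genes with Benjamini-Hochberg adjustment, and a gene was called at an adjusted p under 0.05. Of the 10 members, 0 were called, and 1 had an unadjusted p under 0.05, as had 7.19% of all genes. In all, 9 genes were called, 0.0912% of those tested. The members' median log2 difference was -0.20, against 0.15 for all genes, and 8 of the 10 members had a negative difference. With weights estimated for each mouse, 4 members (Cps1, Otc, Ass1 and Glul) were called, but so were 3573 genes, 36.2% of those tested.

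Cps1, the entry enzyme of the cycle, had 20.6, 18.6 and 12.7 CP10K in WT mice 1, 2 and 3, and 8.91, 2.98 and 17.4 CP10K in SIRT7 KO mice 1, 2 and 3. SIRT7 KO mice 1 and 2 lay below every WT mouse, whereas SIRT7 KO mouse 3 lay inside the WT range. The log2 difference was -1.12 (SE 0.57, 95% interval -2.35 to 0.10, limma adjusted p = 0.73).

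Otc, which joins carbamoyl phosphate to ornithine, had 9.76, 10.8 and 7.90 CP10K in WT mice 1, 2 and 3 and 6.19, 7.05 and 3.31 CP10K in SIRT7 KO mice 1, 2 and 3. Every SIRT7 KO mouse was below every WT mouse. The log2 difference was -0.84 (SE 0.44, 95% interval -1.78 to 0.11, limma adjusted p = 0.741). Nags was the other member whose groups did not overlap, with 0.626, 0.604 and 0.811 CP10K in WT and 0.518, 0.544 and 0.510 CP10K in SIRT7 KO. Its log2 difference was -0.34 (SE 0.35, limma adjusted p = 0.914). With 2 of 10 members free of overlap, the background has to be set beside them, since the groups of 12.8% of all genes did not overlap in these cells.

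Ass1, the cytosolic step that brings in aspartate, had 49.6, 30.3 and 24.0 CP10K in WT mice 1, 2 and 3 and 17.3, 32.3 and 12.9 CP10K in SIRT7 KO mice 1, 2 and 3. SIRT7 KO mouse 2 lay above WT mice 2 and 3. The log2 difference was -0.77 (SE 0.50, 95% interval -1.84 to 0.30, limma adjusted p = 0.818). Asl, which releases arginine, had a log2 difference of -0.55 (SE 0.43, 95% interval -1.48 to 0.37, limma adjusted p = 0.879).

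Slc25a13 (log2 difference 0.01, 95% interval -0.86 to 0.87), Slc25a15 (-0.03, -0.89 to 0.82) and Gls2 (-0.05, -1.01 to 0.91) lay near 0, and a change within those intervals was not detectable with 3 mice per genotype.

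Glul had the opposite sign to the enzymes of the cycle. It had 0.590, 1.42 and 5.18 CP10K in WT mice 1, 2 and 3 and 4.56, 7.26 and 3.36 CP10K in SIRT7 KO mice 1, 2 and 3. WT mouse 3, with 102 cells, reached the range of the SIRT7 KO mice, while WT mice 1 and 2 were below all of them. The log2 difference was 1.52 (SE 0.62, 95% interval 0.20 to 2.84, limma unadjusted p = 0.0272, adjusted p = 0.65). Cells with at least 1000 UMIs were then thinned to 1000 UMIs, and the other cells were left out. This kept 699, 406 and 67 hepatocyte-like cells of WT mice 1, 2 and 3 and 649, 196 and 318 of SIRT7 KO mice 1, 2 and 3. Of these cells, 4.58%, 12.8% and 10.4% held a Glul UMI in WT, against 16.6%, 21.9% and 12.3% in SIRT7 KO. The exact permutation test gave a two-sided p = 0.2, where 0.1 is the smallest that 3 mice against 3 allow. Before thinning, over all hepatocyte-like cells, the shares were 7%, 21.3% and 16.7% in WT and 22.1%, 29.3% and 27.8% in SIRT7 KO (exact permutation p = 0.1). Cells that are not known for glutamine synthetase also held Glul UMIs. In T and NK-like cells the thinned shares were 3.90%, 2.60% and 4.94% in WT mice 1, 2 and 3. They were 10.9%, 8.15% and 6.45% in SIRT7 KO mice 1, 2 and 3 (exact permutation p = 0.1). The fit of the Glul level in T and NK-like cells gave a log2 difference of 0.996 (SE 0.35, limma adjusted p = 0.535). In plasma-like cells the thinned shares ran from 0 to 3.08%. The part of free RNA in the Glul shares of hepatocyte-like cells was not tested.

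**Figure D1:**
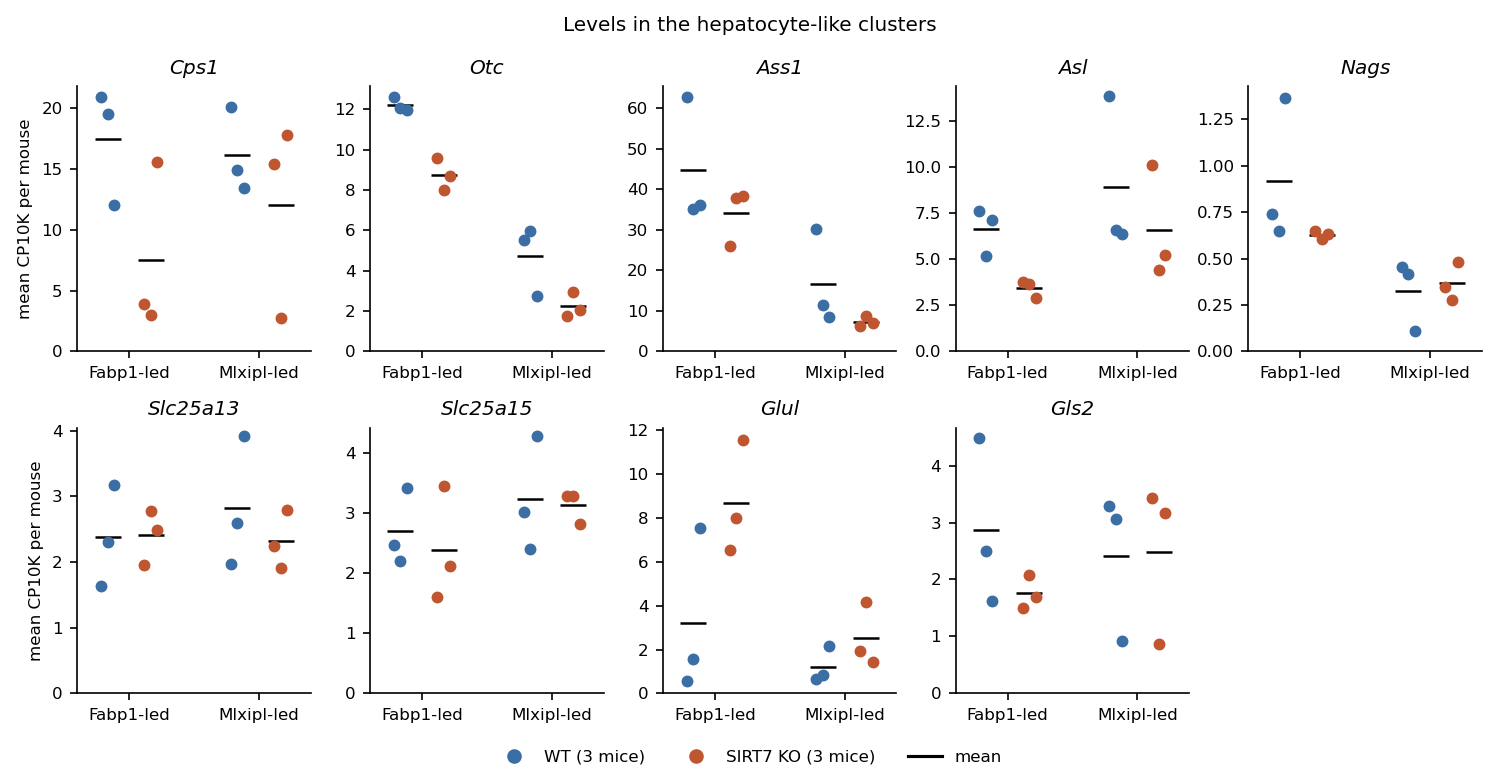
Mean CP10K per mouse (vertical axis, linear from 0) of 9 members in the Fabp1-led and Mlxipl-led hepatocyte-like clusters, with 3 WT mice in blue, 3 SIRT7 KO mice in orange and group means as bars. Otc and Asl of the Fabp1-led cluster do not overlap between the genotypes, and Otc and Ass1 are lower in the Mlxipl-led cluster in every mouse.

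The clusters were then compared one at a time, since the mix of the clusters differed between mice. In the Fabp1-led cluster 0 of 10 members and 39 genes were called (0.454% of 8589). Otc had 12.6, 12.04 and 11.97 CP10K in WT mice 1, 2 and 3 and 9.60, 8.02 and 8.68 CP10K in SIRT7 KO mice 1, 2 and 3, without overlap (log2 difference -0.48, SE 0.21, limma adjusted p = 0.408). Asl had 7.62, 5.18 and 7.14 CP10K in WT and 3.75, 3.65 and 2.88 CP10K in SIRT7 KO, again without overlap. Its log2 difference of -0.94 (SE 0.25, 95% interval -1.46 to -0.41) had the smallest p of the members in this cluster, 0.00135 unadjusted and 0.108 after limma's adjustment. These were the 2 members without overlap in this cluster, where the groups of 16.9% of all genes did not overlap.

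Cps1 in the Fabp1-led cluster had 20.9, 19.5 and 12.04 CP10K in WT mice 1, 2 and 3 and 3.91, 3.02 and 15.6 CP10K in SIRT7 KO mice 1, 2 and 3. Again SIRT7 KO mouse 3, with 64 cells of this cluster, stood with the WT mice. The log2 difference was -1.57 (SE 0.69, limma adjusted p = 0.496) with all mice, and without SIRT7 KO mouse 3 Cps1 was called, as were 1.73% of genes. Glul had 0.548, 1.57 and 7.56 CP10K in WT and 6.57, 7.99 and 11.6 CP10K in SIRT7 KO. Its log2 difference was 2.13 (SE 1.04, limma adjusted p = 0.545), and it was called without WT mouse 3, which had 57 cells of this cluster (0.713% of genes were then called).

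In the Mlxipl-led cluster 0 of 10 members and 21 genes were called (0.205% of 10246), and 0 members were free of overlap, against 16.3% of all genes. Otc had 5.51, 5.97 and 2.73 CP10K in WT mice 1, 2 and 3 and 1.74, 2.95 and 2.04 CP10K in SIRT7 KO mice 1, 2 and 3 (log2 difference -1.02, SE 0.40, limma adjusted p = 0.405). Ass1 had 30.1, 11.4 and 8.52 CP10K in WT and 6.23, 8.76 and 6.89 CP10K in SIRT7 KO (log2 difference -0.98, SE 0.43, limma adjusted p = 0.448). Glul had 0.652, 0.824 and 2.16 CP10K in WT and 1.94, 4.19 and 1.43 CP10K in SIRT7 KO (log2 difference 1.07, SE 0.47, limma adjusted p = 0.463). All 10 hepatocyte markers had a lower fitted level in SIRT7 KO in this cluster too, with a median log2 difference of -0.99.

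**Figure D2:**
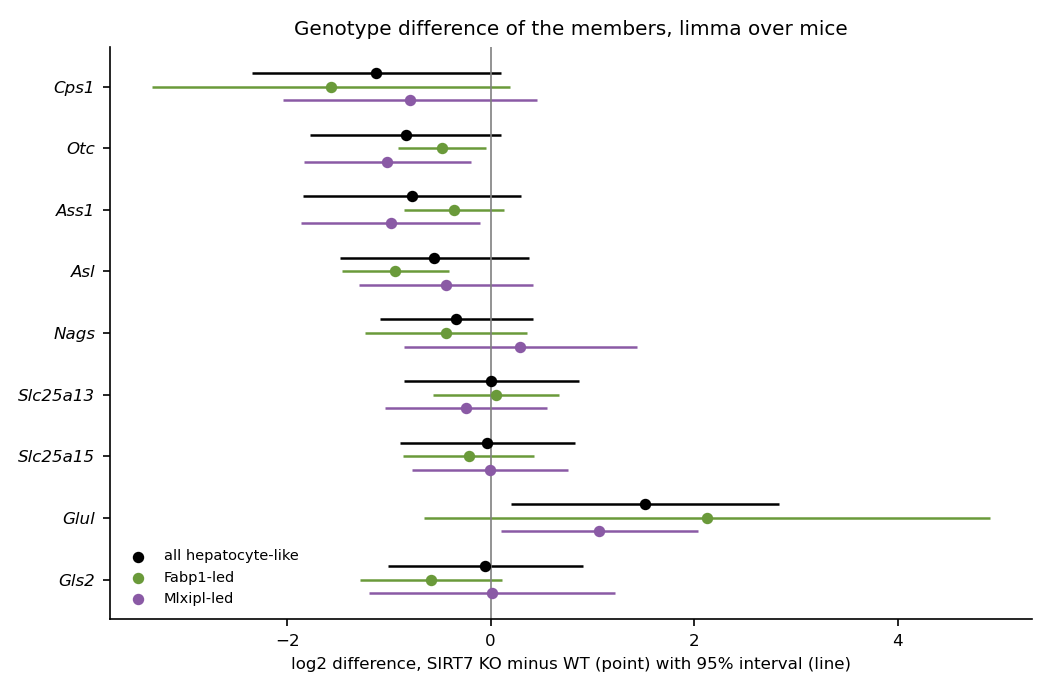
Log2 difference of 9 members between SIRT7 KO and WT (horizontal axis) in all hepatocyte-like cells (black), the Fabp1-led cluster (green) and the Mlxipl-led cluster (purple), with 95% intervals from limma over 3 mice per genotype. The enzymes from Cps1 to Asl lie to the left of 0 and Glul to the right, and 0 of the members passed the adjusted threshold in any of the 3 fits.

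Between the clusters themselves, Otc, Ass1 and Nags were lower in the Mlxipl-led cluster in 6 of 6 mice. The within-mouse log2 difference had a median of -2.06 for Ass1, -1.74 for Otc and -0.74 for Nags. Cps1 and Gls2 were split, with 3 of 6 mice on each side, and Asl was higher in the Mlxipl-led cluster in 5 of 6 mice. Clusters differ by construction, and 42.2% of 9935 genes lay on 1 side in all 6 mice, so these values are a description with no test.

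Otc and Ass1 were also each other's near matches over all cell classes. Over 46 mouse-by-class means, Otc was most like Ttc36 (r = 0.967), Gsta3 (r = 0.965) and Ass1 (r = 0.963) among 3258 genes. Ass1 was most like Otc, Rida (r = 0.962) and Serpina1b (r = 0.959). Cps1 was most like Fgg (r = 0.943), Alb (r = 0.94) and Clu (r = 0.935). Glul had the loosest matches, Blvrb (r = 0.774), Twf1 (r = 0.753) and Lgals9 (r = 0.752). These means share libraries, depth and free RNA, and the correlations carry no test.

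The promoters of Otc, Ass1 and Glul are shown because Otc and Ass1 varied together and Glul apart from them. Each is the 250 bases before the RefSeq start (GRCm38.p6, given 5′ to 3′ on the gene's strand, which is the plus strand for all 3), at chrX:10252055-10252304 for Otc, chr2:31470020-31470269 for Ass1 and chr1:153899679-153899928 for Glul. Capitals mark matches to CCAAT or TATAAA on either strand.
Otc: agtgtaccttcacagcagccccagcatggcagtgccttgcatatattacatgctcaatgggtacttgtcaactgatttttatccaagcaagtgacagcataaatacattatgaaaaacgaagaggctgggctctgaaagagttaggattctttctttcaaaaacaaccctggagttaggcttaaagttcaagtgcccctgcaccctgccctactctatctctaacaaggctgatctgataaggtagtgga
Ass1: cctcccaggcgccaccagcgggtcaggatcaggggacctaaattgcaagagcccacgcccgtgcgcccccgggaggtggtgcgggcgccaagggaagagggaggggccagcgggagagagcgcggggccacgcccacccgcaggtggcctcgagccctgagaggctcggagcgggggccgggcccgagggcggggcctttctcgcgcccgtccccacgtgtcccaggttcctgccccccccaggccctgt
Glul: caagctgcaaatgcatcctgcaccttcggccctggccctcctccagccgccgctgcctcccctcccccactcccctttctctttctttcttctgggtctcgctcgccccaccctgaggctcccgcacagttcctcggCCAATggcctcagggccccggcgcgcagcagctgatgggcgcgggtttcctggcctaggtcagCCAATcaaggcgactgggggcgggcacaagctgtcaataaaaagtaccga

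Glul held 2 matches to CCAAT and 0 to TATAAA, and Otc and Ass1 held 0 of each. Among 27025 promoters of the same length, 34.5% held CCAAT and 12.97% held TATAAA. Of the 10 members, 6 had an entry in this table. In the GENCODE annotation of GRCm38, Otc spans chrX:10252305-10321024, Ass1 chr2:31470207-31520672, Glul chr1:153899944-153909723 and Cps1 chr1:67123026-67231259, all on the plus strand and all protein-coding.

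The next comparison asked where the members stood along the lobule. Within each mouse, hepatocyte-like cells with 5 or more landmark UMIs were ordered by the share of periportal landmarks among all landmark UMIs. There were 10 periportal landmarks (such as Cyp2f2 and Pck1) and 12 pericentral landmarks (such as Cyp2e1 and Cyp1a2). The cells were cut at the median share of the mouse. It was 62.5%, 33.3% and 50% in WT and 60%, 44.4% and 63.3% in SIRT7 KO mice 1, 2 and 3. A side thus did not cover the same shares in every mouse. No member is a landmark. The floor of 5 UMIs kept 782 of 800, 488 of 512 and 97 of 102 cells in WT. It kept 774 of 929, 227 of 283 and 330 of 335 in SIRT7 KO. In all hepatocyte-like cells the median log2 difference between genotypes was -0.57 for the pericentral and -0.12 for the periportal landmarks, with 0 called. The part that the landmarks and the floor had in genotype comparisons by side was not tested. The sides partly followed the clusters: Mlxipl-led cells made up 63.3%, 43.1% and 63.6% of the periportal side in WT mice 1, 2 and 3 but 19.1%, 1.67% and 24.4% of the pericentral side, and in SIRT7 KO mice 1, 2 and 3 75.5%, 32.1% and 92.1% against 24.3%, 7.97% and 71.9%.

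Of the 10 members, 0 passed the test of the zone difference over both genotypes, and 1 of 9834 genes did (0.0102%). That gene, Sds, breaks down serine and belongs to the list of other amino nitrogen enzymes, with a log2 difference of 2.42 toward the periportal side (SE 0.25, limma adjusted p = 0.0426) and higher there in 6 of 6 mice. The call was lost when any of 5 of the 6 mice was left out, all but WT mouse 3 (log2 difference 2.27 to 2.54, limma adjusted p = 0.0982 to 0.318), with cells ordered by mean ln landmark values (2.82, limma adjusted p = 0.158), with sides cut within each cluster (2.60, limma adjusted p = 0.853) and in the Fabp1-led (2.59, limma adjusted p = 0.877) or Mlxipl-led cluster alone (2.60, limma adjusted p = 0.514). Unadjusted, 5 members had a p under 0.05, as had 22.8% of all genes.

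Glul lay furthest to the pericentral side. It had 0.821, 1.49 and 10.5 CP10K in the pericentral side of WT mice 1, 2 and 3 against 0.344, 1.21 and 0.904 CP10K in the periportal side. In SIRT7 KO mice 1, 2 and 3 it had 7.97, 11.6 and 6.07 CP10K against 1.28, 4.86 and 0.807 CP10K. It was higher on the pericentral side in 6 of 6 mice, and by least in WT mouse 2. The log2 difference, periportal-side minus pericentral-side, was -1.93 (SE 0.42, 95% interval -2.89 to -0.97, limma adjusted p = 0.0958), and Glul was called with a pseudocount of 0.5 CP10K, a setting under which 11.3% of all genes were called. With sides cut within each cluster it was higher on the pericentral side in 5 of 6 mice (log2 difference -1.84).

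Asl was higher on the periportal side in 5 of 6 mice, with a log2 difference of 0.69 (SE 0.27, limma adjusted p = 0.19). Gls2 had a log2 difference of 0.71 (SE 0.24, limma adjusted p = 0.136), higher on the periportal side in 4 of 6 mice. With the pseudocount of 0.5 CP10K, under which 1116 genes were called, Asl and Gls2 were among those called on the periportal side. Nags was higher on the pericentral side in 6 of 6 mice (-0.61, SE 0.25, limma adjusted p = 0.194), but in only 4 of 6 with sides cut within each cluster.

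The sign of the Otc and Ass1 differences depended on how the sides were cut. Over all hepatocyte-like cells Otc was higher on the pericentral side in 6 of 6 mice (log2 difference -0.42, SE 0.24, limma adjusted p = 0.312), whereas with sides cut within each cluster it was higher on the periportal side in 5 of 6 (0.18). Within the Fabp1-led cluster alone Otc had a log2 difference of 0.20, and within the Mlxipl-led cluster alone -0.32, where 4 of 6 mice were higher on the periportal side and SIRT7 KO mouse 2 had -3.08. Ass1 went from -0.12 (SE 0.23, limma adjusted p = 0.777) to 0.48, with 6 of 6 mice higher on the periportal side, and had 0.54 in the Fabp1-led and 0.12 in the Mlxipl-led cluster alone. The carriers Slc25a13 (-0.10) and Slc25a15 (0.05) lay near 0.

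**Figure D3:**
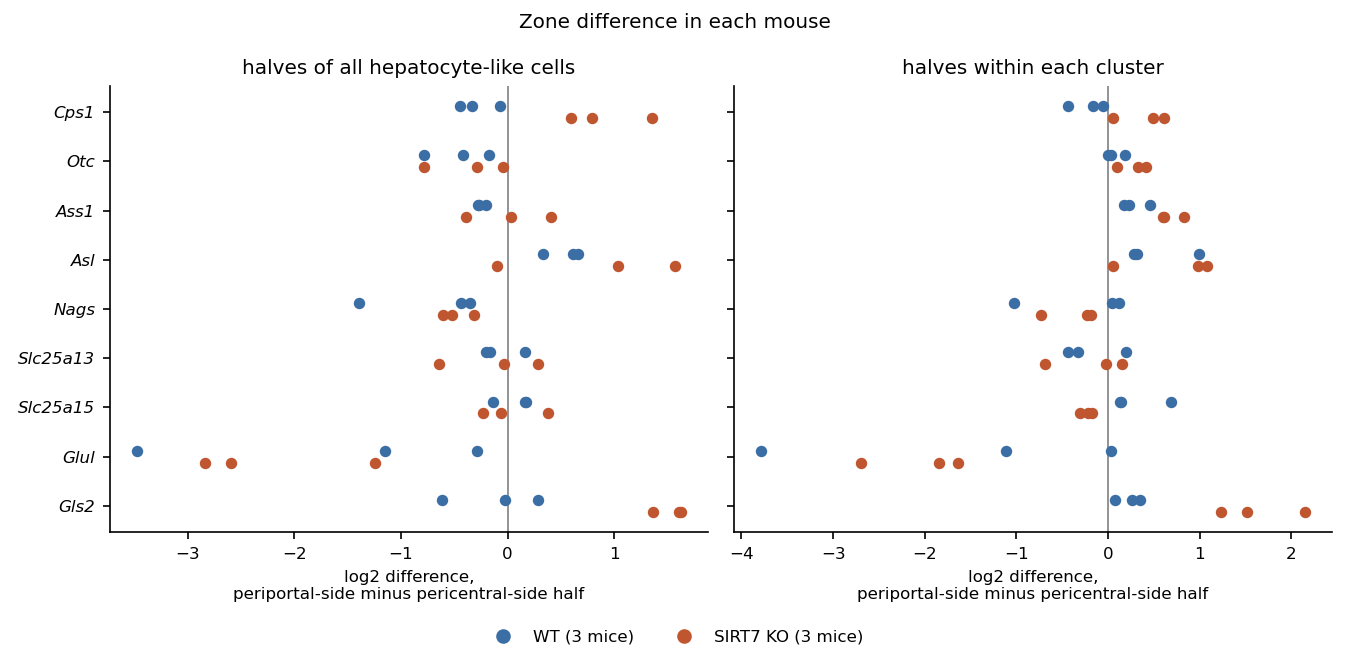
Log2 difference of 9 members between the periportal-side and the pericentral side of the hepatocyte-like cells of each mouse (horizontal axis), with WT mice in blue and SIRT7 KO mice in orange, for sides of all cells (left) and sides cut within each cluster (right). Glul lies left of 0 in 6 of 6 mice on the left and in 5 of 6 on the right, and the WT and SIRT7 KO points of Cps1 and of Gls2 do not overlap in either panel, nor do those of Ass1 and Slc25a15 on the right.

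Whether the zone difference depended on the genotype was tested as the difference of the within-mouse values. Of the 10 members and of all 9834 genes, 0 were called by limma (0.0%), with 2 members and 346 genes (3.52%) at an unadjusted p under 0.05. Those members were Cps1 and Gls2. Gls2, which releases ammonia from glutamine, had a within-mouse log2 difference of -0.02, 0.29 and -0.61 in WT mice 1, 2 and 3 and of 1.62, 1.61 and 1.36 in SIRT7 KO mice 1, 2 and 3. The difference between genotypes was 1.65 (SE 0.47, 95% interval 0.58 to 2.71, limma unadjusted p = 0.00692, adjusted p = 0.911). Cps1 had -0.07, -0.34 and -0.45 in WT and 1.35, 0.79 and 0.60 in SIRT7 KO. The difference was 1.198 (SE 0.47, limma unadjusted p = 0.0301, adjusted p = 0.911). These were the 2 of 10 members whose genotypes did not overlap in the zone difference, where 9.95% of all genes did not overlap. With sides cut within each cluster, 4 of 10 members did not overlap (Cps1, Gls2, Ass1 and Slc25a15), against 10.3% of all genes.

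Within the sides, 0 of 10 members were called on the pericentral side (0.0951% of 9460 genes were). On the periportal side 0 of 10 were called (0.129% of 10069 genes). Unadjusted, 5 members had a limma p under 0.05 on the pericentral side (6.37% of all genes) and 0 on the periportal side (7.7%). Gls2 had a log2 difference of -0.96 on the pericentral and 0.68 on the periportal side. Cps1 on the pericentral side had 21.1, 21.3 and 14.5 CP10K in WT mice 1, 2 and 3 and 5.49, 2.02 and 13.6 CP10K in SIRT7 KO mice 1, 2 and 3, without overlap (log2 difference -1.80, SE 0.56, limma adjusted p = 0.518). Otc and Asl did not overlap on this side either, and nor did 12.5% of all genes. Without SIRT7 KO mouse 3, Cps1 was called, with 0.492% of genes. On the periportal side, where it had 20.2, 16.8 and 10.6 CP10K in WT and 14.1, 3.54 and 20.5 CP10K in SIRT7 KO, the groups overlapped (-0.60, SE 0.59, limma adjusted p = 0.861).

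Outside hepatocytes the members were compared with the hepatocyte markers, which these other cells are not known to express. Each member was divided by the 10 summed markers and set relative to the same ratio in the hepatocyte-like cells of the mouse. Macrophage-like cells (3702 cells, led by Cd5l, Clec4f and C1qa) held hepatocyte markers at 4.29% to 18.7% of the level in hepatocyte-like cells. Over the 6 mice the relative ratio had a median of 0.947 for Cps1 (0.732 to 1.12), 0.940 for Otc (0.429 to 1.39), 1.02 for Ass1 (0.584 to 2.06) and 0.914 for Asl (0.627 to 1.98), so that each lay on both sides of 1. For Glul it ran from 3.14 to 30.1, above 1 in 6 of 6 mice.

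Glul was the 1 member of 10 whose ratio was above 1 in every mouse in macrophage-like cells. It had 2.51, 3.48 and 2.54 CP10K there in WT mice 1, 2 and 3 and 3.88, 1.87 and 2.41 CP10K in SIRT7 KO mice 1, 2 and 3, and the groups overlapped. The log2 difference was -0.11 (SE 0.26, limma adjusted p = 0.912). Among cells with at least 1000 UMIs, thinned to 1000, 14% to 39.02% of macrophage-like cells held a Glul UMI, against 2.60% to 10.9% of T and NK-like cells. In endothelial-like cells the relative ratio of Glul was 1.56 to 15.3 over 5 mice, with 2.51, 3.18 and 3.17 CP10K in WT mice 1, 2 and 3 and 3.35 and 1.35 CP10K in SIRT7 KO mice 1 and 2.

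**Figure D4:**
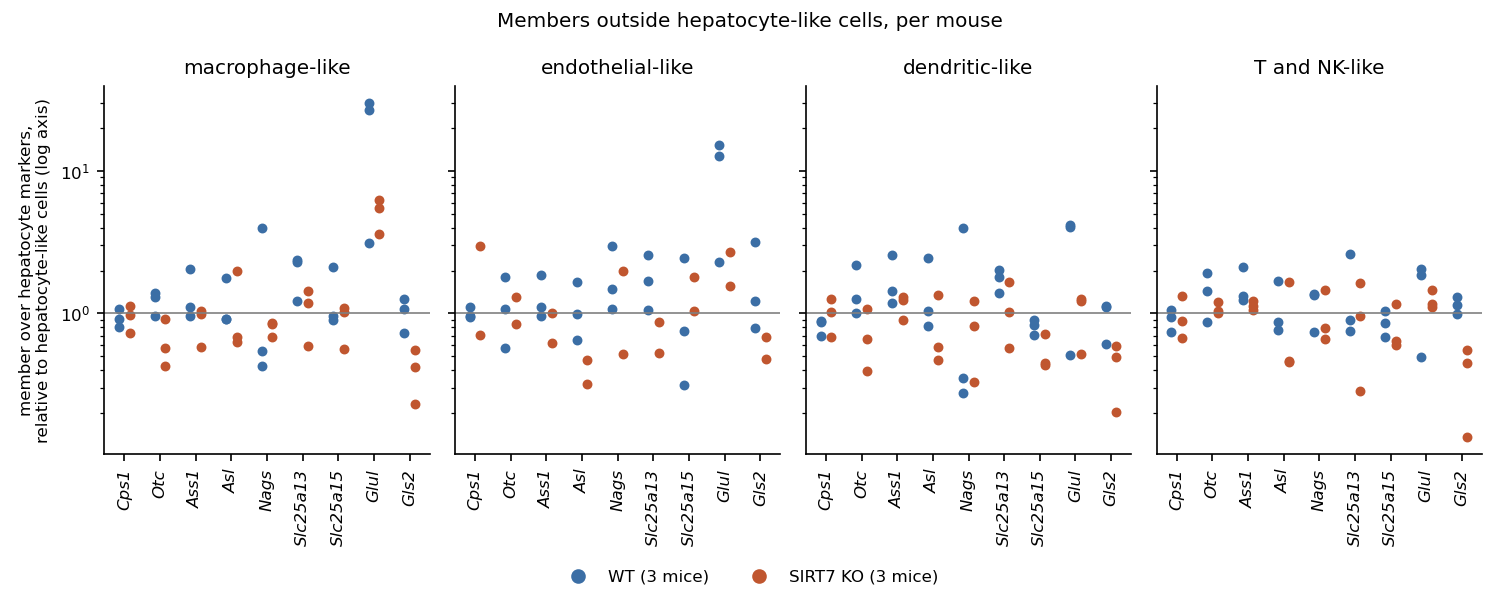
Ratio of 9 members to the summed hepatocyte markers in 4 other classes, relative to the same ratio in the hepatocyte-like cells of the mouse (vertical axis, log scale), with 3 WT mice in blue and 3 SIRT7 KO mice in orange (2 in endothelial-like cells) and a line at 1. Glul of macrophage-like cells lies above 1 in every mouse, from 3.14 to 30.1.

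Members other than Glul were lower in SIRT7 KO in most of these classes, together with the hepatocyte markers. In macrophage-like cells 0 of 10 members were called (0.201% of 9945 genes were), 7 had an unadjusted p under 0.05 (10.6% of all genes did), and 5, among them Otc, Ass1, Asl and Slc25a13, did not overlap, against 17.1% of all genes. Ass1 had 11.5, 7.50 and 3.39 CP10K in WT mice 1, 2 and 3 and 2.69, 0.844 and 2.26 CP10K in SIRT7 KO mice 1, 2 and 3 (log2 difference -1.91, SE 0.53, limma adjusted p = 0.245). The members' median was -1.34, that of the 10 hepatocyte markers -1.23 and that of all genes -0.03. The summed markers were 138, 107 and 53.4 CP10K in WT and 59.2, 12.7 and 64.8 CP10K in SIRT7 KO macrophage-like cells. Without SIRT7 KO mouse 1, Otc was called, with 0.975% of genes.

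The members' median was below that of all genes in the other classes too. In T and NK-like cells 0 of 10 members were called (0.13% of 10009 genes were), with a members' median of -1.32 and a marker median of -1.005. In dendritic-like cells, a cluster of 1501 cells whose leading genes included the monocyte gene F13a1, 0 of 10 were called (0.0308% of 9738 genes), with medians of -1.11 and -0.87. At a finer clustering (resolution 1.0), 1105 cells led by F13a1 and Gpr141 were named monocyte and 201 cells dendritic, so this class may be mostly monocytes. In endothelial-like cells 0 of 10 were called (0.254% of 10649 genes), with medians of -1.39 and -1.26 over 3 WT and 2 SIRT7 KO mice, and Cps1 came closest (log2 difference -1.40, SE 0.35, limma adjusted p = 0.0579). In plasma-like cells 0 of the 9 members tested were called (0.0782% of 7670 genes), with a members' median of -0.62 against -1.24 for the markers. In B-like cells 0 of 10 members and 0 genes were called by limma (0.0% of 9294), with 3 members and 341 genes (3.67%) at an unadjusted p under 0.05, and medians of -0.38 and -1.06. Both classes had 2 mice per genotype. Without SIRT7 KO mouse 1, 5 members were called in T and NK-like cells (1.4% of genes) and 4 in dendritic-like cells (1.41%). In endothelial-like cells that step left 1 SIRT7 KO mouse, so no count is given. Neutrophil-like and stellate-like cells had too few mice with 20 cells and were not tested.

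Genes around the cycle were called in the Fabp1-led cluster but not in all hepatocyte-like cells. In all hepatocyte-like cells, 0 of 16 amino nitrogen enzymes that passed the filter of 18 listed were called, 0 of 8 of the 10 amino acid and ammonia transporters, and 0 of 10 regulators and supporting genes. The list medians were -0.18, -0.12 and 0.23 on the log2 scale, against 0.15 for all genes. In the Fabp1-led cluster, 2 of 16 amino nitrogen enzymes and 1 of 7 transporters fell in SIRT7 KO, where 0.454% of all genes were called, and the list medians were -0.58 and -1.105 against -0.11 for all genes. Of the regulators and supporting genes, 0 of 10 were called, with a median of 0.11. The landmark genes were low in this cluster as well. The pericentral landmarks had a median of -0.89, with 1 of the 10 tested called (Cyp2e1). The periportal landmarks had a median of -1.02, with 0 of 10 called. Hal, which starts the breakdown of histidine, had 2.96, 2.82 and 5.98 CP10K in WT mice 1, 2 and 3 and 1.13, 0.831 and 0.751 CP10K in SIRT7 KO mice 1, 2 and 3 (log2 difference -1.99, SE 0.33, limma adjusted p = 0.00707). Gpt, an alanine aminotransferase, had 2.58, 2.56 and 2.15 CP10K in WT and 0.790, 0.879 and 0.592 CP10K in SIRT7 KO (-1.64, SE 0.31, limma adjusted p = 0.0169). The glutamine carrier Slc38a3 had 1.91, 2.14 and 1.33 CP10K in WT and 0.362, 0.247 and 0.572 CP10K in SIRT7 KO (-2.09, SE 0.38, limma adjusted p = 0.0129). Every SIRT7 KO mouse was below every WT mouse for the 3 genes, and the groups of 16.9% of all genes did not overlap in this cluster. The 3 genes were named because this fit called them, so that separation adds no support. Without WT mouse 2 Gpt (adjusted p = 0.0883 by limma) and Slc38a3 (adjusted p = 0.0769) were no longer called, nor was Slc38a3 without SIRT7 KO mouse 2 (adjusted p = 0.0599). With the replicate number as a block in the fit, 2 genes were called in this cluster, and Hal, Gpt and Slc38a3 were all no longer called. The hepatocyte markers had a median of -0.68 in this cluster. In the Mlxipl-led cluster 0 genes of these lists were called. In all hepatocyte-like cells the most abundant enzymes were Hpd, of tyrosine breakdown, at 23.2, 24.3 and 23.2 CP10K in WT mice 1, 2 and 3 and 20.2, 23.4 and 13.3 CP10K in SIRT7 KO, and Tat, at 18.3, 12.6 and 14.6 CP10K in WT and 12.1, 8.36 and 19.5 CP10K in SIRT7 KO. Of the transporters, the glutamine carriers Slc38a2 and Slc38a3 led. Slc38a2 had 1.16 to 7.91 CP10K over the 6 mice. Slc38a3 had 3.12 to 4.69 CP10K in WT and 1.24 to 9.50 CP10K in SIRT7 KO. Over all hepatocyte-like cells the log2 differences of Hal, Gpt and Slc38a3 were -0.91, -0.79 and -0.08 (limma adjusted p = 0.705, 0.73 and 0.989). Of the regulators, Gcgr, the glucagon receptor and a leading gene of the Mlxipl-led cluster, had 2.29 to 4.396 CP10K in WT and 5.41 to 16.7 CP10K in SIRT7 KO, and Cebpb had 4.16 to 12.4 CP10K over the 6 mice.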

How the data were processed

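The authors aligned reads to mm10 with Cell Ranger 6.0.0, per the labels, and per their methods removed cells with under 500 genes or over 5% mitochondrial reads. The deposited values are the natural log of counts per 10000 plus 1, ln(CP10K + 1), as the authors made them. Undone, they gave whole UMIs within 0.02. Columns of values not used: 0. Since the values are logged, no count model was run. The members and gene lists were chosen with earlier results of these data known, and members were named whatever their values, except 1 that is not reported here and enters only counts and medians over the 10. Of the other lists, genes called in all hepatocyte-like cells and the 2 most abundant were named, and for Cps1, Otc, Ass1 and Glul the 3 most similar genes. Sds, Hal and Gpt, and Slc38a3 and Cyp2e1 in the Fabp1-led cluster, were named after their values were seen.

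Clustering used 1000 variable genes without the members and nitrogen lists, 50 components, 3 neighbours per mouse (scanpy 1.11.5) and leidenalg 0.10.2 at resolution 0.35. The threshold for naming a cluster from its markers (a mean log2 fold of 1) was set after cluster output was seen. Scrublet marked 46 cells (0.396%), too few to have worked, so doublets are in effect unremoved; 13 barcodes occurred in more than 1 library. Tests used limma 3.58.1 (R 4.3.3, statmod 1.5.0; trend and robust, without trend for within-mouse differences) on genes with a mean of 0.05 CP10K, a pseudocount of 0.05 and mice with 20 or more cells, and were tested on simulated data. P-values measure the spread between these mice.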

Additional observations from a re-analysis of the deposited data

Results flagged for a closer look

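The zone difference of Cps1 was marked because it pointed one way in every WT mouse and the opposite way in every SIRT7 KO mouse. The difference of the log2 zone difference, SIRT7 KO minus WT, was 1.198 (SE 0.47), with an adjusted p of 0.911 by limma. It ranged from 0.386 to 1.375 over 16 alternatives, with the same sign in 16. The alternatives reuse the mice whose signs marked Cps1, so the shared sign adds no support. The share of all genes that meet this sign rule was not counted. With sides cut within each cluster, the values were -0.06, -0.16 and -0.44 in WT mice 1, 2 and 3 and 0.05, 0.50 and 0.61 in SIRT7 KO mice 1, 2 and 3. Within the Fabp1-led cluster alone, SIRT7 KO mouse 1 stood at -0.47 with the WT mice. Within the Mlxipl-led cluster alone, WT mouse 2 stood at 0.42, among the SIRT7 KO mice at 0.25, 0.25 and 0.56.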

How the results depend on the processing

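With 3 mice per genotype and 45 to 526 cells per mouse and cluster, most intervals spanned 1 log2 unit or more. In all hepatocyte-like cells 0 members were called under every alternative except weights estimated per mouse, where 4 were (3573 genes; the estimation stopped before convergence). The 9 genes called became 3 with a pseudocount of 0.5, summed UMIs, no filter, no trend and robust, or at least 1000 UMIs, 1 with mean ln values, 19 at resolution 1.0, 22 without cells holding other classes' markers, 47 with equal weight of the clusters and 3 to 25 leaving out a mouse. At resolution 1.0 a cluster of 1566 Fabp1-led cells scored 0.969, just under the naming threshold; with it, 9 genes and 0 members were called. That setting, the 22, the 47, and the sides cut within or in single clusters were chosen after seeing the data. Members called numbered 1 with summed UMIs in the Fabp1-led cluster and 1 with a pseudocount of 0.5 in endothelial-like cells. Endothelial-like cells are not in the next counts, since leaving out a SIRT7 KO mouse left 1 there. Leaving out a mouse gave 0 to 1 in the Fabp1-led cluster, in macrophage-like cells and on the pericentral side. It gave 0 to 5 in T and NK-like and 0 to 4 in dendritic-like cells. All genes called then numbered 19 to 150 in the Fabp1-led cluster and 6 to 128 in the Mlxipl-led cluster, with 0 members among the latter. The zone test called 4 members and 1116 genes with a pseudocount of 0.5, and 0 genes with mean ln landmark values, sides cut within clusters or either cluster alone, and 0 to 1 leaving out a mouse (0 in 5 of 6).

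Same-numbered mice of both genotypes deviated together at r = 0.0933, 0.214 and 0.116, each the highest for its number, so the numbers hint at pairs but were not taken as such. With the replicate block, 18 genes and 0 members were called in all hepatocyte-like cells, and 2 members in macrophage-like (140 genes in all), 3 in dendritic-like (43) and 2 in endothelial-like cells (57). In the Fabp1-led cluster the block called 2 genes, and Hal, Gpt and Slc38a3 had adjusted p-values of 0.319, 0.311 and 0.343 by limma. The block could not be fitted in plasma-like and B-like cells. Hepatocyte-like cells by a marker share of 5% and at least 50 cells in plasma-like and B-like cells were not run, for want of mice.

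The genotype difference turned for Slc25a13 -0.00030 (pseudocount 0.5), -0.058 (summed UMIs), -0.090 (weights per mouse), -0.13 (Leiden resolution 1.0), -0.064 (at least 1000 UMIs), -0.089 (equal weight of the clusters), for Slc25a15 0.099 (mean of ln values), 0.022 (Leiden resolution 1.0). Leaving out a mouse gave Slc25a13 -0.22 to 0.26, Slc25a15 -0.20 to 0.17, Gls2 -0.47 to 0.31. The zone difference turned for Otc 0.18 (sides within each cluster), 0.20 (Fabp1-led cluster alone), for Ass1 0.17 (difference of mean ln landmark values), 0.48 (sides within each cluster), 0.54 (Fabp1-led cluster alone), 0.12 (Mlxipl-led cluster alone), for Slc25a13 0.00066 (without Cyp2e1 and Cyp2f2), for Slc25a15 -0.057 (Mlxipl-led cluster alone). Leaving out a mouse gave Slc25a13 -0.20 to 0.029, Slc25a15 -0.042 to 0.11. The genotype difference of the zone difference turned for Otc -0.26 (difference of mean ln landmark values), -0.091 (at least 10 landmark UMIs), -0.94 (Mlxipl-led cluster alone), for Ass1 -0.011 (difference of mean ln landmark values), -0.018 (at least 10 landmark UMIs), -0.27 (Mlxipl-led cluster alone), for Asl -0.042 (Mlxipl-led cluster alone), for Nags -0.18 (at least 10 landmark UMIs), -0.099 (sides within each cluster), -0.44 (Fabp1-led cluster alone), for Slc25a13 0.13 (difference of mean ln landmark values), 0.14 (at least 10 landmark UMIs), 0.0042 (sides within each cluster), 0.10 (Mlxipl-led cluster alone). Leaving out a mouse gave Otc -0.075 to 0.29, Asl -0.069 to 0.77, Nags -0.089 to 0.43, Slc25a13 -0.27 to 0.20, Slc25a15 -0.22 to 0.090, Glul -1.51 to 0.083.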
